A study of Mus musculus with 6 samples.

Results

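The 6 growth plate genes described here are Cnmd, Vit, Capn6, Ecrg4, Rab34 and Smpd3. They were chosen by their red-channel intensity, which was higher on the arrays labelled ATF6aKO than on those labelled ATF6bKO on 1 slide. No threshold was given for that choice, so there are no members just inside or outside it. The 6 genes are 6 of 19122 named genes that passed the filter on dim probes. Each had 1 probe, matched through its RefSeq accession, and all 6 passed that filter. Because the difference between the knockouts chose them, it is given below as a description without a test.

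The RNA came from tibial growth plate of untreated male C57BL/6J mice, taken at 4 weeks of age with a laser microdissector. There were 3 genotypes with 2 arrays each: ATF6aKO, in which Atf6 (ATF6 alpha) was targeted, ATF6bKO, in which Atf6b (ATF6 beta) was targeted, and wild type (WT). The labels do not give the deleted part of either gene, and they do not say whether separate mice were used for the arrays of 1 genotype, so every p-value measures the spread between arrays only. From 150 ng of RNA, whole-transcriptome amplified cDNA was labelled with Cy5 and hybridised to Agilent mouse arrays. All 4 knockout arrays shared a slide and a 2-channel scan protocol, with each genotype in its own row of the slide. Row and genotype therefore cannot be told apart between the knockouts. The WT arrays were on another slide scanned in a single channel, which the files call green, so slide, channel and genotype cannot be told apart between knockouts and WT.

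The growth plate is the cartilage at the end of a long bone in which chondrocytes multiply, enlarge and lay down matrix before bone replaces them. ATF6 alpha and ATF6 beta are transcription factors anchored in the endoplasmic reticulum (ER) membrane. Misfolded protein in the ER sends them to the Golgi apparatus, where proteases release the part that enters the nucleus, and ATF6 alpha is known there as an activator of ER chaperone genes. Chondrocytes secrete much collagen and proteoglycan and depend on ER folding capacity.

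The Atf6 probe read 7.07 and 6.97 on the ATF6aKO arrays, 6.91 and 7.01 on ATF6bKO, and 7.05 and 7.28 on WT, in normalised log2 intensity. The Atf6b probe read 8.92 and 8.48 on ATF6aKO, 8.77 and 8.41 on ATF6bKO, and 9.06 and 9.19 on WT. The arrays of the 2 knockouts overlapped for both genes, and the mean of Atf6b was slightly lower on its own knockout than on the other. Where these probes lie relative to the deleted part is not given in the sources used here, so they check nothing, and the genotype names below are those of the labels. Every array had 86.9% to 96.7% of spots well above background. Over all genes the knockout arrays correlated with each other at r of 0.964 to 0.986 and with the WT arrays at 0.833 to 0.895.

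The tissue label was checked against cartilage markers. Col2a1, Col9a1, Col9a2, Acan and Comp, which encode the main collagens and the large proteoglycan of cartilage and a matrix-bridging protein, were well above background on all 6 arrays. Of 28 measured cartilage markers, 26 were. Markers of bone were also present. Col1a2, a chain of bone collagen, was the brightest of 7 bone markers, at 16.02 on WT replicate 1 and 8.62 on WT replicate 2. Hba-a1, a globin of red cells, was 14.81 and 11.76 on the WT arrays and 7.40 to 7.98 on the knockout arrays. Both markers were highest on WT replicate 1, and slide and channel cannot be told apart from genotype here either. With each array scaled to its 75th percentile, Tnni2, a muscle marker, and Lyz2, a leukocyte marker, were instead higher in the knockouts than in WT. They were higher by 2.90 and 2.11 log2 units, and read -0.425 and -0.75 in the log2 values that the authors deposited. Those deposited values follow the green channel on the knockouts, which is not the labelled Cy5. In bulk tissue, fewer cells of a type and less RNA per cell cannot be told apart.

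Promoter windows are shown for the members that RefSeq's table held (build GRCm38.p6). ATF6 acts through promoter elements, and the 6 genes were all chosen by a difference between the knockouts. Each window runs from 250 bases before to 50 bases after the start of the gene. Of the 6 genes, 4 had a window, and Vit and Smpd3 are named only. Rab34 had 2 windows, of which the first is printed. Capitals mark CCAAT and CCACG on either strand (ATTGG and CGTGG on the printed strand). These are the parts of the ER stress response element (ERSE), which is CCAAT and CCACG with 9 bases between them and to which ATF6 binds together with the factor NF-Y.
Cnmd chr14:79662134-79662433 (minus strand): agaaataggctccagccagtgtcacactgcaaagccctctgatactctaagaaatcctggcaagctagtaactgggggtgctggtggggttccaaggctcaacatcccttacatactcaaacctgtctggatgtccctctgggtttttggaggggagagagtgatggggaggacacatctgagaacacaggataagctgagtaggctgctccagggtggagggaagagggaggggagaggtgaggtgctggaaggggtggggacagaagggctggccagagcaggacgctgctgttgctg
Capn6 chrX:143827363-143827662 (minus strand): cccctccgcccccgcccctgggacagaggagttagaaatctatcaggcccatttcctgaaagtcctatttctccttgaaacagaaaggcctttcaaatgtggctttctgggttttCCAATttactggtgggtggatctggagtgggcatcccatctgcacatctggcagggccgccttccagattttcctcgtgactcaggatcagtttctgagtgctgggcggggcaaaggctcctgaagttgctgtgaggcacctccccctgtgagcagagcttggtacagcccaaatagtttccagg
Ecrg4 chr1:43730352-43730651 (plus strand): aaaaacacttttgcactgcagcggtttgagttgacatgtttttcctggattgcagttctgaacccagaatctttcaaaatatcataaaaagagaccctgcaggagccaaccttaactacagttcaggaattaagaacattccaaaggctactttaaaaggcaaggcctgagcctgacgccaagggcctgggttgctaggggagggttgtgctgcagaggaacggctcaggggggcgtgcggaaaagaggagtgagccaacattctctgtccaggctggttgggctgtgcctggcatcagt
Rab34 chr11:78188177-78188476 (plus strand): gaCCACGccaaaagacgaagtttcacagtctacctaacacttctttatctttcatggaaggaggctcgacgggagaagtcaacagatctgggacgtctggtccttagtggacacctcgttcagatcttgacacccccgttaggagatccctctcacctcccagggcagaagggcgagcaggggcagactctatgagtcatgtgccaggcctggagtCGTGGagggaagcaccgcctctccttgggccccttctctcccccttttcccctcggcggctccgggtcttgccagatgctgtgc
The whole ERSE was in none of the 5 member windows and in 0.119% of 32851 windows of the same length, searched on both strands. ERSE-II, which is ATTGG and CCACG with 1 base between them, was in none of the 5 and in 0.0365% of all. The element TGACGTGG, which overlaps TGACG and the reverse of CCACG, was likewise in none of the 5 and in 0.676% of all. CCACG occurred in 1 window, that of Rab34, and in 32.8% of all windows. CCAAT occurred in 1 window, that of Capn6, and in 37.4% of all. TGACG, the core of cyclic AMP response elements, occurred in 1 window, that of Ecrg4, and in 20.8% of all. ACAAT, a core recognised by SOX factors, occurred in none of the 5 and in 31.0% of all. Such matches describe the letters of these windows and show no binding site.

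Cnmd and Vit encode matrix or secreted proteins, and both were highest on ATF6aKO. Cnmd encodes chondromodulin, a cartilage glycoprotein cut from a membrane precursor, which inhibits blood vessel growth and helps keep cartilage free of vessels. Its normalised log2 intensity was 12.82 and 13.34 on ATF6aKO, 11.45 and 11.12 on ATF6bKO, and 10.99 and 11.43 on WT. The ATF6aKO arrays were above all others, while the ATF6bKO and WT arrays overlapped. In unnormalised median intensity the spot read 6546 and 9311 on ATF6aKO, 2259.5 and 1617.5 on ATF6bKO, and 3130.5 and 3507.5 on WT. On that scale the WT arrays lay above the ATF6bKO arrays. The normalised mean was 13.08 ± 0.37 (SD, n = 2) on ATF6aKO, 11.28 ± 0.23 (n = 2) on ATF6bKO and 11.21 ± 0.31 (n = 2) on WT. ATF6aKO exceeded ATF6bKO by 1.79 ± 0.25 (SE of the fit) log2 units, a fold of 3.47, and 24 of the 19122 genes differed by more in that direction.

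Vit encodes vitrin, an extracellular matrix protein with von Willebrand factor A domains, which also bind collagen in matrilins. Vit read 9.30 and 9.56 on ATF6aKO, 8.17 and 7.62 on ATF6bKO, and 7.60 and 7.56 on WT. All 3 genotypes separated in that order, but the lower ATF6bKO array cleared the higher WT array by less than the difference between the ATF6bKO replicates. The means were 9.43 ± 0.18 (SD, n = 2), 7.90 ± 0.39 (n = 2) and 7.58 ± 0.03 (n = 2). The difference between the knockouts was 1.53 ± 0.22 (SE), a fold of 2.88. Unnormalised, Vit read 583 and 628 on ATF6aKO, 227 and 137 on ATF6bKO, and 241 and 190 on WT, so ATF6bKO and WT overlapped on that scale.

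Capn6 encodes calpain 6, a member of the calpain protease family that lacks the catalytic cysteine and is known to bind microtubules. It read 9.30 and 9.70 on ATF6aKO, 8.19 and 7.67 on ATF6bKO, and 6.62 and 6.92 on WT. No genotype overlapped another, with ATF6bKO in between. The means were 9.50 ± 0.29 (SD, n = 2), 7.93 ± 0.36 (n = 2) and 6.77 ± 0.21 (n = 2). The knockouts differed by 1.57 ± 0.24 (SE), a fold of 2.97. Unnormalised, Capn6 read 584 and 703, then 231.5 and 145, and then 92 and 102, in the same order of genotypes and again without overlap.

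Ecrg4 encodes the precursor of augurin, a secreted peptide that is expressed in cartilage among other tissues. It read 8.83 and 9.71 on ATF6aKO, 7.57 and 7.04 on ATF6bKO, and 6.49 and 6.38 on WT. These also fell into 3 separate levels, with ATF6bKO in between. The means were 9.27 ± 0.62 (SD, n = 2), 7.31 ± 0.37 (n = 2) and 6.44 ± 0.07 (n = 2). The difference between the knockouts, 1.96 ± 0.30 (SE) or 3.90-fold, was the widest of the 6, and 11 genes differed by more in that direction. Unnormalised, Ecrg4 read 417 and 702 on ATF6aKO, 150 and 93.5 on ATF6bKO, and 79 and 55 on WT.

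Rab34 encodes a small GTPase of vesicle transport that is needed to form the primary cilium, the antenna through which chondrocytes receive hedgehog signals. It read 7.82 and 7.74 on ATF6aKO, 6.59 and 6.58 on ATF6bKO, and 6.52 and 6.64 on WT. The ATF6bKO values lay between the WT values. The means were 7.78 ± 0.06 (SD, n = 2), 6.58 ± 0.01 (n = 2) and 6.58 ± 0.08 (n = 2). Rab34 had the narrowest spread of the 6 within both knockouts and a difference between them of 1.20 ± 0.15 (SE), a fold of 2.30. Its spot was dim, with 206.5 and 172 on ATF6aKO, 73 and 64 on ATF6bKO, and 82 and 74 on WT before normalisation. That was 5.04 and 4.53 times the local background on ATF6aKO and 1.92 and 1.78 times it on ATF6bKO. How the background was treated moved its difference, which was 1.84 with the scanner's processed signal and 1.59 with a smaller normexp offset of 16.

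Smpd3 encodes neutral sphingomyelinase 2, a membrane enzyme that cuts sphingomyelin to ceramide, and mice that lack it have short, deformed limbs. It read 9.55 and 10.17 on ATF6aKO, 8.64 and 7.37 on ATF6bKO, and 8.70 and 7.43 on WT. ATF6aKO was above all other arrays, and ATF6bKO and WT overlapped. The means were 9.86 ± 0.44 (SD, n = 2), 8.01 ± 0.90 (n = 2) and 8.07 ± 0.90 (n = 2). The knockouts differed by 1.85 ± 0.51 (SE), a fold of 3.61 with the largest error of the 6. Unnormalised, Smpd3 read 690 and 984 on ATF6aKO, 317.5 and 120 on ATF6bKO, and 596 and 166.5 on WT.

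**Figure D1:**
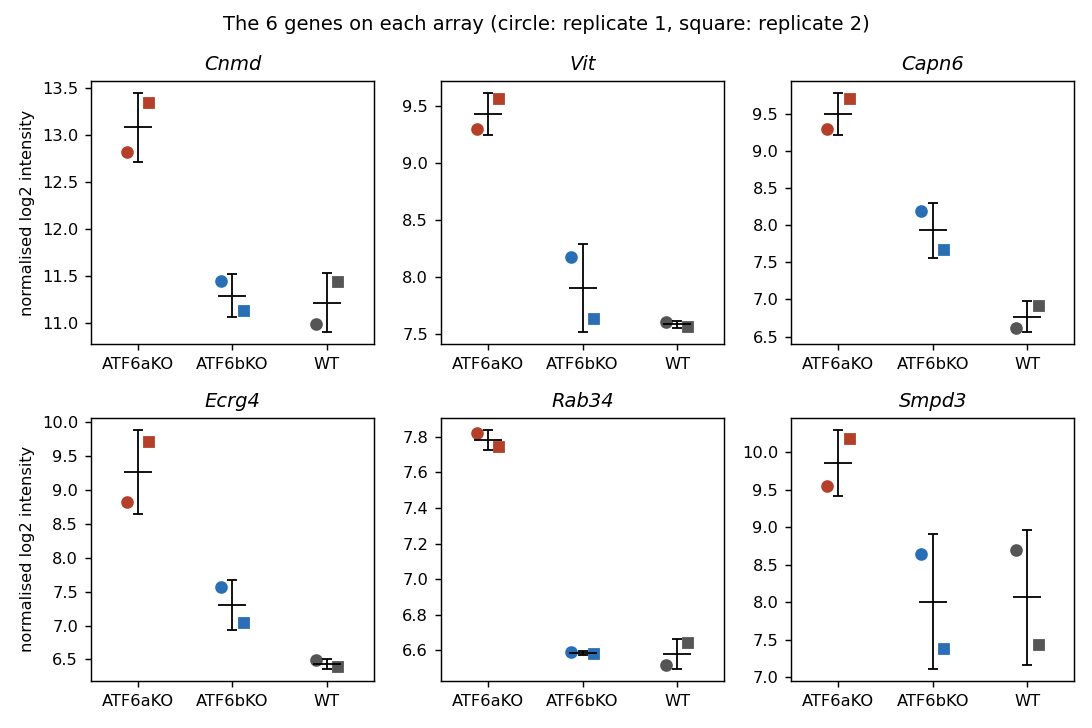
Normalised log2 intensity of each of the 6 genes by genotype, with 1 panel per gene, circles for replicate 1 and squares for replicate 2. On ATF6aKO both arrays lie above both ATF6bKO arrays in every panel, and Smpd3 shows the widest gap between replicates on ATF6bKO and WT.

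The spread between replicates differed among the genes. Over all 19122 genes the median difference between the 2 arrays of a genotype was 0.22 log2 units on ATF6aKO, 0.17 on ATF6bKO and 0.20 on WT. The Smpd3 replicates differed by 0.63 on ATF6aKO, 1.27 on ATF6bKO and 1.27 on WT. These differences were larger than those of 93.4%, 99.8% and 96.8% of genes. The Ecrg4 replicates differed by 0.88 on ATF6aKO, more than 98.4% of genes. Vit, Capn6 and Ecrg4 replicates on ATF6bKO differed by 0.55, 0.52 and 0.52, each more than at least 94.1% of genes. Rab34 replicates differed by 0.08, 0.01 and 0.12 on ATF6aKO, ATF6bKO and WT, and 31.0% of genes at most had a smaller difference. In 5 of the 6 genes replicate 2 was the higher array on ATF6aKO and replicate 1 the higher on ATF6bKO, with Rab34 reversed on ATF6aKO.

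The distance between the knockouts can also be read array by array. Across the 4 pairings of an ATF6aKO with an ATF6bKO array the log2 difference was 1.37 to 2.21 for Cnmd, 1.12 to 1.93 for Vit and 1.11 to 2.03 for Capn6. It was 1.26 to 2.66 for Ecrg4, 1.15 to 1.25 for Rab34 and 0.90 to 2.80 for Smpd3. All 6 genes thus had both ATF6aKO arrays above both ATF6bKO arrays, as the choice of members implies, and so did 20.1% of all genes. A difference of over 1 log2 unit in that direction was found in 1.43% of all genes. Across the whole table limma called 0 genes between the knockouts at an adjusted p of 0.05, which is 0% of those tested, and 1169 (6.11%) had an unadjusted p below that threshold, most of them higher on ATF6aKO (5.09% of all genes). Without ATF6aKO replicate 2, limma called 8 genes, with the remaining ATF6aKO array assumed to vary like those of the other genotypes. The median difference of the 6 members was 1.68 and that of all genes was -0.00.

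The choice of members used the knockout arrays and not WT. The mean of both knockouts, which contains the arrays of that choice, was compared with WT. The comparison was fitted with limma over the 6 arrays with Benjamini-Hochberg adjustment over all genes. Capn6 and Ecrg4 showed the largest rises. Capn6 was higher in the knockouts by 1.95 ± 0.21 (SE) log2 units, a fold of 3.85 with a limma adjusted p of 0.000522. Ecrg4 was higher by 1.85 ± 0.26, a fold of 3.61 (adjusted p = 0.00141). Vit was higher by 1.08 ± 0.19, a fold of 2.12 (adjusted p = 0.0031), and in each of these 3 genes all 4 knockout arrays lay above both WT arrays. Cnmd was higher by 0.97 ± 0.21, a fold of 1.96 (adjusted p = 0.00806), with 3 of 4 knockout arrays above both WT arrays. Rab34 was higher by 0.60 ± 0.13, a fold of 1.52 (adjusted p = 0.00826), with both ATF6aKO arrays and neither ATF6bKO array above both WT arrays. Smpd3 did not pass, at 0.87 ± 0.44 (95% interval -0.17 to 1.90, adjusted p = 0.144), with both ATF6aKO arrays above both WT arrays. The authors' deposited table follows the green channel, which on the knockouts is not the labelled Cy5. There Cnmd turned to -3.70 (limma adjusted p = 0.00285) and Vit lost its call at 0.05 (adjusted p = 0.885). No Cnmd or Vit spot was well above background in the green channel of the knockouts. Ecrg4 and Rab34 read 4.05 and 6.40 in that table. With the scanner's processed signal Capn6 read 3.05, Ecrg4 3.10 and Rab34 1.16, and Rab34 read 0.96 with each array scaled to its 75th percentile.

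Of the 6 genes, 5 were therefore called higher, where 47.1% of all genes were called, 22.0% higher and 25.1% lower. With each array scaled to its 75th percentile, the split over all genes moved from 4206 higher and 4809 lower to 5881 higher and 3890 lower, and the median of all genes from -0.04 to 0.16. The members' median was 1.03. All 4 knockout arrays were above both WT arrays in 3 of the 6 genes and in 28.3% of all genes. The count is no independent support for the choice, because the mean draws on the same ATF6aKO and ATF6bKO arrays that chose the members, and so does the error estimate. Cnmd, Vit, Capn6, Ecrg4 and Rab34 hold the first 5 places, and Smpd3 place 202, when genes higher on ATF6aKO are ordered by their unadjusted p. Their adjusted p-values against WT may therefore be too small, and this limit also holds for the fits without 1 array below. For Cnmd and Rab34 the rise of the mean lay in the ATF6aKO arrays. Their ATF6bKO minus WT difference was 0.07 ± 0.25 and 0.00 ± 0.15 (SE).

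The mean of the knockouts hides unequal parts, which are given side by side without a test because both share the WT arrays. ATF6aKO minus WT was 1.87 ± 0.25 (SE) for Cnmd, 1.85 ± 0.22 for Vit and 2.73 ± 0.24 for Capn6. It was 2.83 ± 0.30 for Ecrg4, 1.21 ± 0.15 for Rab34 and 1.79 ± 0.51 for Smpd3. ATF6bKO minus WT was 0.07 ± 0.25 for Cnmd, 0.32 ± 0.22 for Vit and 1.16 ± 0.24 for Capn6. It was 0.87 ± 0.30 for Ecrg4, 0.00 ± 0.15 for Rab34 and -0.06 ± 0.51 for Smpd3. Both ATF6aKO arrays exceeded both WT arrays in all 6 genes and in 34.6% of all genes. Both ATF6bKO arrays did so in 3, namely Vit, Capn6 and Ecrg4, and in 33.3% of all genes. None of the 6 had both ATF6bKO arrays below both WT arrays in normalised values, an order found in 39.5% of all genes. Before normalisation Cnmd and Rab34 did have that order. On ATF6bKO, then, Cnmd, Rab34 and Smpd3 overlapped WT in normalised values, and Capn6 and Ecrg4 lay above it.

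**Figure D2:**
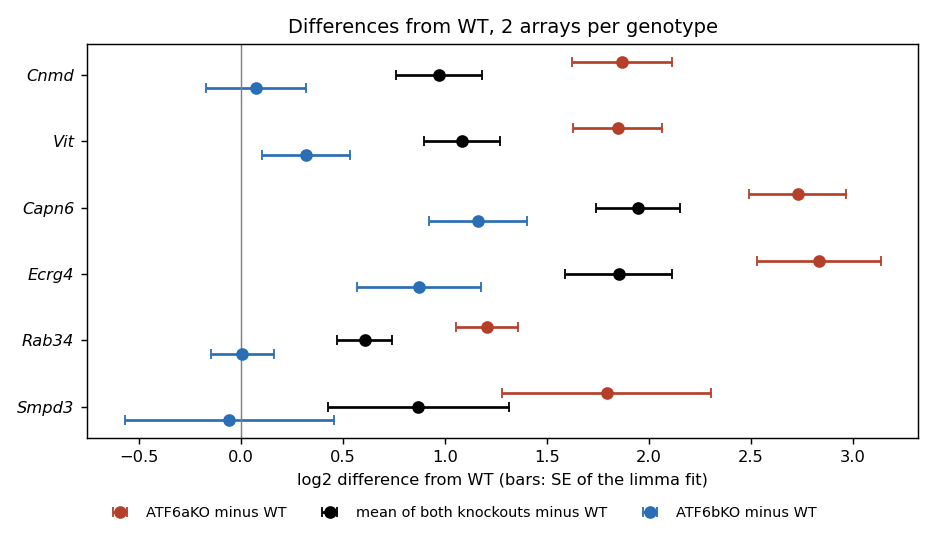
Log2 difference from WT of each gene (points) with the SE of the limma fit (bars) for ATF6aKO, ATF6bKO and the mean of both. ATF6aKO lies between 1.21 and 2.83 for the 6 genes, and ATF6bKO between -0.06 and 1.16.

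The result for Smpd3 moved with single arrays. A genotype left with 1 array is assumed to vary like the others. Without WT replicate 1 its difference between the knockouts and WT was 1.50 (limma adjusted p = 0.0115), and without WT replicate 2 it was 0.23 (adjusted p = 0.675). Without ATF6bKO replicate 1 it was 0.55 (adjusted p = 0.32), and without ATF6bKO replicate 2 it was 1.19 (adjusted p = 0.0588). WT replicate 1 was also the array with the highest bone signal, whose summed intensity over 7 bone markers was 82032 there and 2607 on WT replicate 2. On the knockout arrays that sum lay between 1920 and 3829. The part of bone RNA in the Smpd3 values was not tested. The other 5 genes stayed called without any single array.

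**Figure D3:**
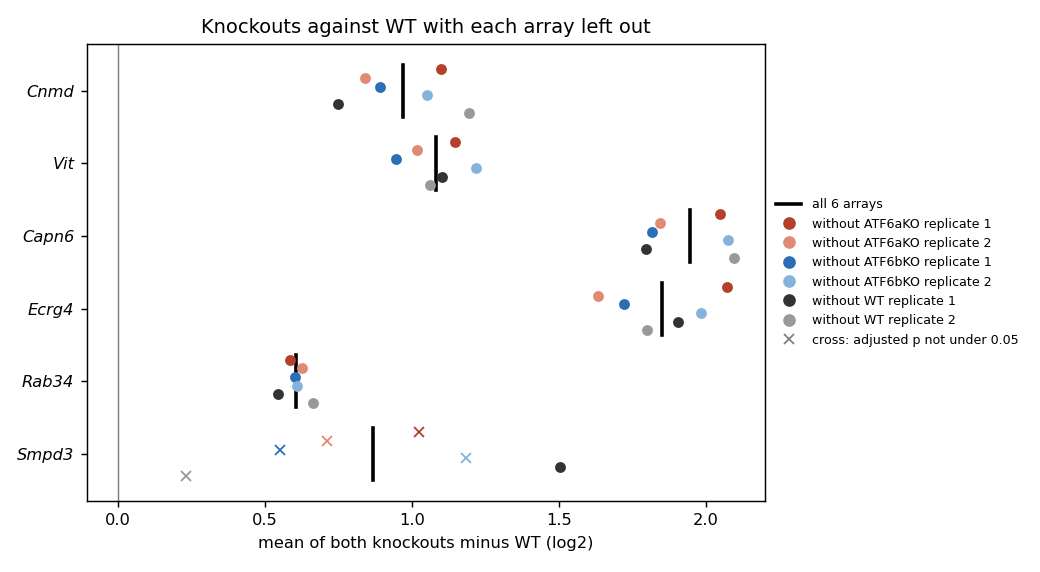
Mean of both knockouts minus WT in log2 units for each gene, with black bars for all 6 arrays and coloured marks for fits without 1 array, a cross marking an adjusted p not under 0.05. Smpd3 moves from 0.23 to 1.50 with the WT array left out, while Cnmd, Vit, Capn6, Ecrg4 and Rab34 stay past the threshold.

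The profiles of the 6 genes over the 6 arrays were alike, as their choice favours. Pairwise Pearson r over 6 arrays ranged from 0.778 to 0.981 in 15 pairs. These arrays share a slide within the knockouts, so r describes the arrays and is no test. The closest pairs were Cnmd with Vit, at a root mean square distance of 0.21 log2 units after each gene was centred, and Capn6 with Ecrg4, at 0.25. Those pairs differ in ATF6bKO, which stood near WT for Cnmd and Vit and between the other genotypes for Capn6 and Ecrg4.

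Outside the 6, the nearest genes were found by the same distance over the 6 arrays. Those nearest to Cnmd were Scrg1, a cartilage-expressed gene, at 0.18 (r = 0.984) and Sox9, the master transcription factor of chondrocytes, at 0.20 (r = 0.979). The Sox9 probe was dim and well above background on only 3 of the 6 arrays. It read 6.27 on ATF6bKO replicate 2 and 6.03 and 6.28 on WT. Vit lay nearest to Niban2 at 0.17 (r = 0.980) and to Clec11a, a secreted growth factor of bone, at 0.17 (r = 0.978). Capn6 lay nearest to Gfpt1, the first enzyme of hexosamine synthesis, at 0.17 (r = 0.990) and Furin, a proprotein protease, at 0.22 (r = 0.983). Ecrg4 lay nearest to the noncoding Snhg6 at 0.20 (r = 0.986) and to Matn3, a cartilage matrilin, at 0.21 (r = 0.990). Rab34 lay nearest to Cdc16, a subunit of the anaphase-promoting complex, at 0.18 (r = 0.960) and Pdap1 at 0.19 (r = 0.944). Smpd3 had the closest neighbours of all, Fkbp9, an ER prolyl isomerase, at 0.06 (r = 0.999) and Rpn1, a subunit of the ER enzyme that attaches glycans, at 0.07 (r = 0.997).

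Smpd3 and Fkbp9 can be set side by side as patterns. Fkbp9 read 9.85 and 10.54 on ATF6aKO, 8.89 and 7.65 on ATF6bKO, and 8.92 and 7.60 on WT. Both genes were high on replicate 1 and low on replicate 2 of ATF6bKO and of WT.

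Cartilage markers as a whole moved over the arrays in much the same way as the 6 genes. The median deviation of the 6 genes from their own mean was 0.98 and 1.50 on ATF6aKO, -0.12 and -0.65 on ATF6bKO, and -0.78 and -0.95 on WT. For the 28 cartilage markers it was 0.88 and 1.18 on ATF6aKO, 0.42 and -0.52 on ATF6bKO, and -1.02 and -0.84 on WT. Their summed intensity was 127538 to 141296 on ATF6aKO, 37810 to 77364 on ATF6bKO and 25246 to 36291 on WT. ATF6aKO was highest and WT lowest in that sum. Whether the share of cartilage in the dissected tissue plays a part in the values of the 6 genes was not tested.

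Of the 28 cartilage markers, 20 were called higher and 3 lower in the mean of the knockouts against WT, with a median of 1.40 against -0.04 over all genes. Matn1, a matrilin of mature cartilage, was higher by 3.48 ± 0.29 (limma adjusted p = 0.00028). Col2a1 was higher by 3.53 ± 0.32 (adjusted p = 0.000357) and Col9a2 by 2.78 ± 0.28 (adjusted p = 0.000468). The authors' deposited table follows the green channel on the knockouts, and in it these 3 read -0.23, -0.70 and -1.30. It had 9 of the 28 called higher, 6 lower and a median of -0.23 over the list. Of all 19122 genes it had 7736 called higher and 3218 lower, with a median of 0.85. The green channel of the knockouts is not the labelled Cy5. Here and in the lists below that table therefore cannot decide whether a red-channel result holds. Values not credited to it come from the red channel of the knockouts and the single channel of WT. In the red-channel values Comp differed by -0.20 ± 0.31 and did not pass (limma adjusted p = 0.628). Between the knockouts, 20 of the 28 markers had both ATF6aKO arrays above both ATF6bKO arrays, beside 20.1% of all genes. The reverse order held for 1, beside 16.9% of all genes. Limma called 0, and 18 were higher on ATF6aKO at an unadjusted p under 0.05, beside 5.09% of all genes. In the authors' deposited table ATF6aKO was above in 4 of the 28, beside 6.18% of all genes there, and the reverse held for 3. In the red-channel values Matn1 had the smallest p between the knockouts, at 2.03 ± 0.33 (limma adjusted p = 0.611).

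**Figure D4:**
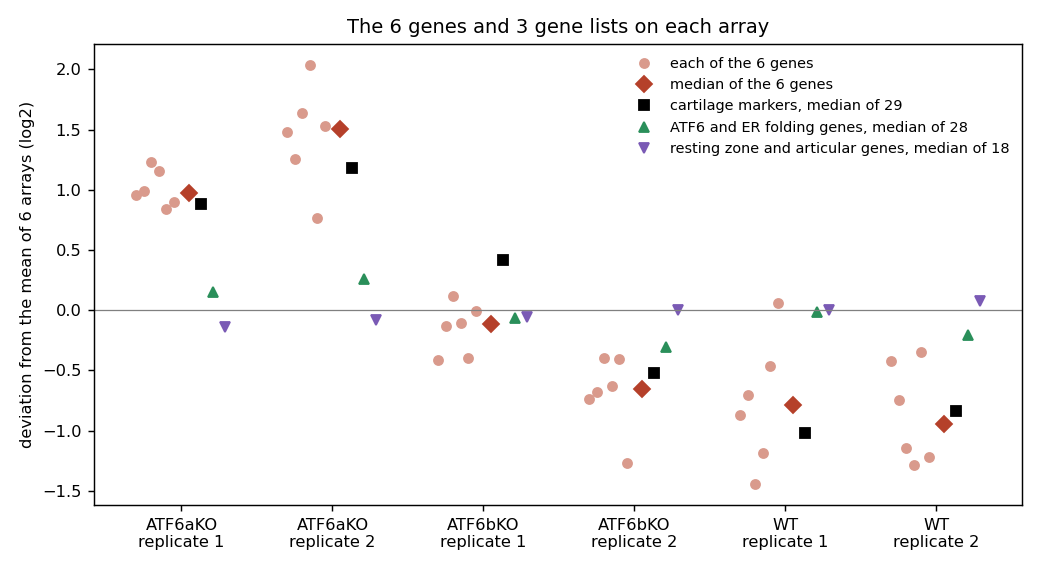
Deviation from the mean of the 6 arrays in log2 units, as points for each of the 6 genes and as medians for 3 gene lists, by array. The cartilage median is over the 28 markers measured, while the legend gives the 29 listed. The 6 genes and the cartilage markers are highest on ATF6aKO in these red-channel values, while the resting zone genes stay between -0.14 and 0.07. The authors' deposited table, which follows the green channel on the knockouts, gives the markers no such order.

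Genes of other growth plate zones were mixed. Of 20 hypertrophic and mineralisation genes, 5 were called higher and 4 lower against WT, close to the shares of all genes (22.0% and 25.1%), beside which the counts of the lists that follow can be read. Col10a1, the brightest of the 20, was higher by 3.61 ± 0.60 (limma adjusted p = 0.00254). Ihh, the hedgehog ligand of prehypertrophic cells, was higher by 1.62 ± 0.24 (limma adjusted p = 0.00176). Pth1r, the receptor that holds back hypertrophy, was lower in the knockouts by a log2 difference of -2.14 ± 0.26 (adjusted p = 0.000779), and Tgm2, a matrix cross-linking enzyme, by -1.13 ± 0.15 (adjusted p = 0.00106). Mgp, an inhibitor of mineralisation, had the smallest p between the knockouts at 1.74 ± 0.46 and did not pass (adjusted p = 0.662). Of 18 resting zone and articular genes, 2 were called higher and 5 lower, among them Apoe at -1.46 ± 0.14 (adjusted p = 0.000385), Barx1 at -1.02 ± 0.18 (adjusted p = 0.00319) and Gas1 at -0.76 ± 0.17 (adjusted p = 0.00803). Barx1 and Gas1 read 0.38 and 0.00 in the authors' deposited table. Ihh lost its call there (1.06, limma adjusted p = 0.098), and so did Col10a1 (-0.86, limma adjusted p = 0.195). Pth1r, Tgm2 and Apoe stayed called lower there, at -4.375, -1.525 and -3.10 (limma adjusted p = 0.000567, 0.0328 and 0.00125). Gdf5, a joint-forming growth factor, had the smallest red-channel p between the knockouts in the resting zone and articular list, at -0.52 ± 0.20 (adjusted p = 0.747).

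Cnmd was set beside its relatives and other genes of the balance between vessel growth and its inhibition. Of 18 measured, 4 were called higher and 4 lower against WT, with a median of 0.02. Kdr, a receptor for vascular endothelial growth factor, was lower at -1.17 ± 0.18 (limma adjusted p = 0.00179), and its ligand gene Vegfa at -1.18 ± 0.25 (adjusted p = 0.0074). Thbs3, a thrombospondin of cartilage, was higher by 1.18 ± 0.23 (adjusted p = 0.00518). None of these 3 genes was called in the authors' deposited table, where Kdr read 0.64 (limma adjusted p = 0.203), Thbs3 0.84 (adjusted p = 0.535) and Vegfa -0.07 (adjusted p = 0.94). That table follows the unlabelled green channel of the knockouts, so it cannot decide whether these red-channel calls hold. Between the knockouts Thbs1, an inhibitor of vessel growth, had the smallest red-channel p at 1.39 ± 0.27 (adjusted p = 0.625). Of the 18, 4 had both ATF6aKO arrays above and 4 below both ATF6bKO arrays, beside 20.1% and 16.9% of all genes.

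Vit belongs to the matrix proteins with von Willebrand A domains, of which 13 others were measured, with 5 called higher and 4 lower against WT. Besides Matn1, Itga1, a collagen-binding integrin chain, was higher by 1.38 ± 0.18 (limma adjusted p = 0.000949), and Vwa1, a cartilage matrix protein, was lower at -1.20 ± 0.20 (adjusted p = 0.00257). In the authors' deposited table both calls were lost, at 0.08 (limma adjusted p = 0.831) and -1.07 (adjusted p = 0.135). Of the 13, 5 had both ATF6aKO arrays above both ATF6bKO arrays and 1 below, while 0 and 2 did in that table. Capn6 belongs to the calpains, of which 15 others with calpastatin were measured, 2 called higher and 4 lower. Capns1, the small subunit, was lower at -1.48 ± 0.16 (adjusted p = 0.000551). Capn15 was lower at -1.06 ± 0.14 (adjusted p = 0.00122) and Capn1 higher by 1.42 ± 0.17 (adjusted p = 0.000755). In the authors' deposited table Capns1 turned to 0.85 (limma adjusted p = 0.0488), and Capn1 read -0.38 and was not called (adjusted p = 0.613). Capn15 stayed called lower there, at -1.425 (adjusted p = 0.0077). Capn2, a ubiquitous calpain, differed most between the knockouts by red-channel p, at 1.11 ± 0.30 (adjusted p = 0.662), without passing.

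Rab34 was set beside 36 other genes of the primary cilium and hedgehog transduction, of which 8 were called higher and 11 lower against WT. Their median was -0.21, and it was 0.44 in the authors' deposited table, where that of all genes was 0.85. Rab10, a GTPase of vesicle transport, was higher by 2.10 ± 0.15 (limma adjusted p = 0.000207) and Gli3, a hedgehog transcription factor, by 1.34 ± 0.16 (adjusted p = 0.000787). Intu, an effector of ciliary assembly, was lower at -1.18 ± 0.14 (adjusted p = 0.000756). Intu lost its call in that table (-0.70, limma adjusted p = 0.234). Between the knockouts the red-channel median of the 36 was 0.00, with 9 above and 3 below beside 20.1% and 16.9% of all genes. At the 75th percentile scaling these were 7 and 5, where 16.1% of all genes were above. They were 5 and 7 in the authors' deposited table, where 6.18% of all genes were above. Myo5a, a myosin motor, had the smallest red-channel p at 0.41 ± 0.15 (adjusted p = 0.737), against 1.20 for Rab34.

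Smpd3 was set beside 31 other genes of sphingomyelin and ceramide metabolism, of which 13 were called higher and 7 lower against WT, with a median of 0.21. Smpd5, another neutral sphingomyelinase, was lower at -0.92 ± 0.13 (limma adjusted p = 0.00151). Asah2, the neutral ceramidase, was higher by 1.01 ± 0.14 (adjusted p = 0.0013). In the authors' deposited table Smpd5 read 0.62 and was not called (limma adjusted p = 0.274). Asah2 stayed called higher there, at 2.575 (adjusted p = 0.00657). Sgms2, which makes sphingomyelin and thus the substrate of Smpd3, had the smallest red-channel p between the knockouts at 2.05 ± 0.74 (adjusted p = 0.737).

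The ATF6 pathway and ER folding genes were measured in full. Of 28, 7 were called higher and 4 lower against WT, with a median of 0.12. The authors' deposited table had 17 higher, 2 lower and a median of 3.56, where its median over all genes was 0.85. Sdf2l1, an ER chaperone cofactor, was higher by 1.21 ± 0.16 (limma adjusted p = 0.000978). Ddit3, the stress factor CHOP, was lower at -1.39 ± 0.13 (adjusted p = 0.000385), and Creb3l1 was lower at -1.63 ± 0.16 (adjusted p = 0.000452). In the authors' deposited table Ddit3 read 3.50 and was not called (limma adjusted p = 0.0705). Sdf2l1 and Creb3l1 stayed called there, at 3.625 and -3.00 (limma adjusted p = 0.00329 and 0.00289). Between the knockouts, 15 of the 28 had both ATF6aKO arrays above both ATF6bKO arrays in the red-channel values. None had the reverse, beside 20.1% and 16.9% of all genes in the 2 orders. Their median difference was 0.32, against 1.68 for the 6 genes. The authors' deposited table had ATF6aKO above in 1, beside 6.18% of all genes there, and the reverse in 2, with a median of -0.15. Creb3l2, an ER-membrane relative of ATF6 that acts in chondrocytes, had the smallest red-channel p between the knockouts, at 0.73 ± 0.15 (adjusted p = 0.625).

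Markers of the other cell types that the dissected tissue could hold were lower in the knockouts or mixed, apart from those of perichondrium and tendon. Against WT, 4 of 7 bone markers, 7 of 11 endothelial markers and 4 of 8 red cell markers were called lower, and 0, 1 and 2 were called higher, beside 25.1% of all genes lower and 22.0% higher. Of the same markers, the authors' deposited table had 2, 2 and 3 called lower and 2, 2 and 1 higher. Of all 19122 genes it had 3218 called lower and 7736 higher. Of 9 osteoclast markers 3 were called lower and 2 higher, of 11 muscle markers 4 and 2, of 11 marrow leukocyte markers 4 and 3, and of 8 perichondrium and tendon markers 0 and 2. The summed intensity of the endothelial markers was 2310 to 2566 on ATF6aKO, 2461 to 2520 on ATF6bKO and 4794 to 5359 on WT. That of the red cell markers was 1606 to 1858, 1917 to 2155 and 6048 to 32367 in the same order. The perichondrium and tendon sum was 3885 to 4136 on ATF6aKO, 1972 to 3023 on ATF6bKO and 1751 to 2726 on WT, in which Fmod, a tendon and cartilage proteoglycan, differed between the knockouts by 1.51 ± 0.49 (limma adjusted p = 0.669). Of the defining markers, Bglap and Dmp1 were not among the genes kept. Col1a1, Ctsk, Hbb-bs and S100a8 were well above background on 5, 4, 3 and 2 arrays. Their part in the values of the 6 genes was not tested.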

How the data were processed

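The deposited scanner files give the intensity of each spot and of its background, and the submitters' processing notes name Agilent Feature Extraction 10.7.1.1 for reading them. The authors' deposited table gives log2 values of the same arrays. Between arrays its differences followed the green channel with r of at least 0.989, while within the knockouts the red channel gave r of -0.0494 to 0.0865. Its scale is log2, and how it was centred and scaled stays unknown. The medians of its columns were 0.2 and 0.1 (ATF6aKO), 0 and 0.231 (ATF6bKO), and -0.5 and -0.5 (WT). It served only as an alternative.

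For this report, the red channel of the knockouts and the only channel of WT were used. Normexp with an offset of 50 (limma 3.58.1, R 4.3.3) corrected the median intensities, which were taken to log2 and quantile normalised. Control spots were removed, as were 288 probes with outlier flags. The array names accessions, and 26582 of 55681 probes were matched to 20145 symbols through the RefSeq gene table of GRCm38.p6. The filter required a probe to exceed background clearly on each of the 2 arrays of some genotype, and a gene was represented by its brightest remaining probe. The number of arrays limits the precision. All 3 genotypes were fitted together with lmFit and eBayes, with 0.05 as the threshold on the Benjamini-Hochberg adjusted p. The procedure was tested on simulated data.

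Named genes were the 6 members, the 2 nearest genes of each, in each pathway list up to 3 genes of smallest p against WT and the 1 of smallest p between the knockouts, the 5 brightest cartilage markers and the brightest marker of other cell types. Not all of these are printed. Atf6 and Atf6b, which the labels name as targeted, and some of the defining markers, such as Col10a1, are given outside that rule. The members, the 16 gene lists and the tests were chosen with earlier results of these data known. Replicate numbers shared between genotypes did not pair the arrays.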

Additional observations from a re-analysis of the deposited data

Results flagged for a closer look

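On the knockout arrays the labels name Cy5 alone, and a green channel was scanned as well, in which 8.45% to 12.5% of spots were well above background. For the 6 genes its spots were well above background in 5 cases, a signal outside the channel that the comparisons used. Ecrg4 had a green processed signal of 30.6 on ATF6aKO replicate 2. Rab34 had 21.6 and 30.8 on ATF6aKO and 29.2 and 22.3 on ATF6bKO. No control array has a second channel to compare these with. No other member's green spot was well above background on a knockout array.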

How the results depend on the processing

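The comparison of the knockouts with WT called 9015 genes and 5 of the 6 members. Over the alternatives fitted by gene it called 6801 to 10954 genes, and with every probe fitted on its own 11526 of 24907 probes. Of 16 alternatives, 14 called 5 members, 1 called 4 and 1 called 6. Without each array in turn it called 6801 to 8684 genes and 5 to 6 members. Limma called 0 to 8 genes between the knockouts when an array was left out, and the members' median difference there was 1.28 to 1.91, the lowest without ATF6bKO replicate 2. An unadjusted p under 0.05 was found in 1169 genes with all 6 arrays, and in 369 to 1625 with an array left out, the fewest without ATF6bKO replicate 2. Only another scaling, background treatment, array set or table could change the order of the members' arrays. Both ATF6aKO arrays stayed above both ATF6bKO arrays in all 6 genes with the 75th percentile, the processed signal, offset 16 and the knockout arrays alone.

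The exception was the authors' deposited table, in which 1 gene (Ecrg4) kept that order and the members' median was 0.45. Of all genes there, 6.18% had that order, and their median difference was 0.03. There Cnmd turned to -3.70 against WT (limma adjusted p = 0.00285), Capn6 to -0.15 between the knockouts, and Vit to 0.05 against WT (adjusted p = 0.885). The table follows the green channel, as its correlation shows, while the labels of the knockouts name Cy5. In the green channel of the knockout arrays, 54.2% to 59.1% of spots had a processed signal at or below 1. No Cnmd, Vit or Capn6 spot there was well above background. In the other alternatives that kept all 6 arrays or the knockouts alone, Rab34 ranged from 1.06 to 1.84 between the knockouts and Cnmd from 1.79 to 1.83. The replicate number was tried as a replicate block, although the deviations of same-numbered arrays correlated at -0.156, -0.0743 and 0.197. With that block, 8554 genes and 5 members were called against WT, 0 genes between the knockouts with 1062 at an unadjusted p under 0.05, and the members' median difference stayed 1.68. Array signal limits Rab34 most, since its ATF6bKO spots stood at 1.92 and 1.78 times their background.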
